A study of Mus musculus with 6 samples.

Results

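The mitosis and chromosome segregation genes are 45 genes whose products drive cells from G2 through chromosome segregation to cytokinesis. They were chosen by gene symbol, and 43 of the 45 had a probe set assigned to that gene alone on the array, among 30713 genes so measured. Ccnb1, the gene of cyclin B1, and Foxm1, a transcription factor of the G2/M programme, had none and were not analysed here. Each of the 43 had a single such probe set, so no choice between probe sets was needed.

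Levels were compared in bone marrow stromal cells (BMSCs) of mice aged 18 months (3 arrays, called aged below) and mice aged 3 months (3 arrays, called young). In both ages the cells were freed from crushed femurs with collagenase, sorted for the surface pattern Sca-1+, CD29+, CD45-, CD11b-, and expanded in culture beyond the first passage before RNA was taken. The labels give neither the strain nor the sex of the mice, and carry no genetic change or treatment. The titles call the 3 arrays of each age biological replicates, without saying how many mice or cultures stand behind each. The values are deposited log2 expression values.

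Entry into mitosis is driven by cyclin-dependent kinase 1 bound to A- and B-type cyclins, and Polo and Aurora kinases then build the spindle. Kinetochores tie chromosomes to spindle microtubules, the spindle assembly checkpoint holds the anaphase-promoting complex until all are attached, and that complex then marks securin and the cyclins for destruction. Most of these genes are transcribed mainly in G2 and mitosis, so in stromal cultures they are used as markers of dividing cells. A higher value in RNA from a whole culture can come from more cells in mitosis or from more RNA per such cell, and these cannot be told apart here.

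All 43 genes lay above the filter on dim genes, which kept 20198 genes in all. At 18 months 24 of the 43 were higher and 2 were lower, and 17 did not pass (limma, Benjamini-Hochberg adjusted p under 0.05 over all genes tested). Over all tested genes 40.6% were called, 18.5% as higher and 22.1% as lower, whereas 55.8% of the mitotic genes were called higher and 4.65% lower. Their median difference, aged minus young, was 0.14 on the log2 scale, beside 0.01 for all genes tested. All aged arrays lay above all young arrays in 31 of the 43 genes, beside 24.4% of all genes, and below them in 5, beside 26.9%. Called genes with non-overlapping arrays and a difference of at least 0.3 numbered 13 higher and 1 lower (9.68% and 9.45% of all genes). When the difference was tested against 0.3 instead of 0, 4 genes passed, all higher: Ccnb2, Kif20a, Nusap1 and Ccna2 (5.79% of all genes passed that test as higher, and 4.04% as lower).

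**Figure D1:**
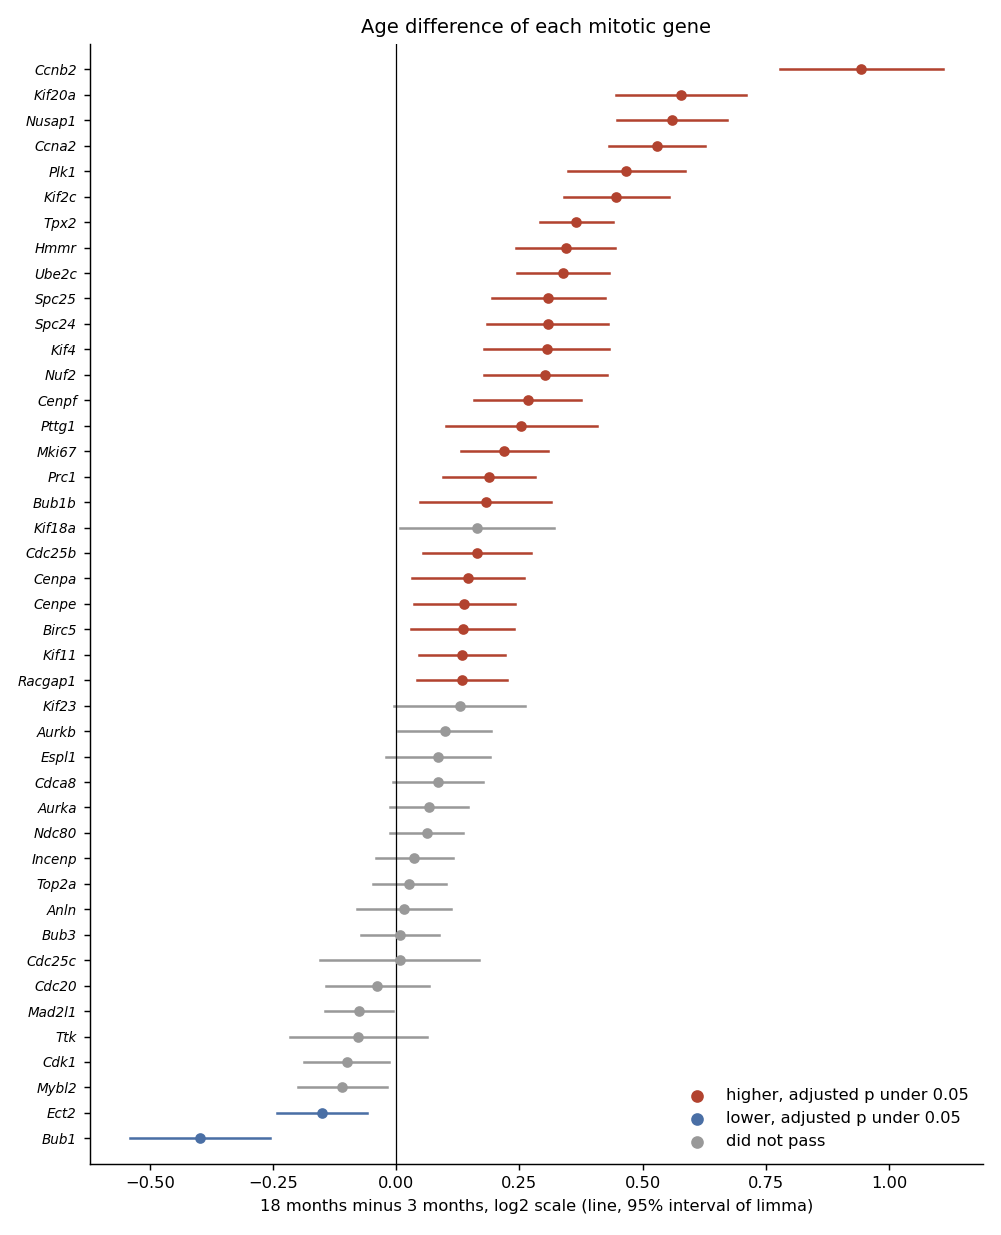
Difference between 18 and 3 months for the 43 measured mitotic genes, on the log2 scale, ordered by size; points are differences of group means (n = 3 arrays per age), lines are 95% intervals from limma, and colour gives the call. The intervals of Ccnb2, Kif20a, Nusap1, Ccna2, Plk1 and Kif2c lie wholly above 0.3, those of Bub1, Ect2, Mybl2, Cdk1 and Mad2l1 lie wholly below 0, and 17 genes did not pass.

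The arrays of an age differed from each other in these genes, and the cause of this was not tested. The median of the 43 genes' deviations from their 6-array means was 0.08, 0.09 and 0.04 on the aged arrays and -0.03, -0.05 and -0.14 on the young arrays, whereas the same median over all tested genes lay between -0.02 and 0.02. Young replicate 3 thus stood apart: it gave the lowest of the 3 young values in 37 of the 43 genes (86.0%), beside 42.9% of all genes. It did so too in 25 of 25 DNA replication genes, 19 of 20 other kinesin, spindle and centrosome genes and 13 of 14 other outer kinetochore genes. Without it, 20 mitotic genes were called higher and 5 lower. The count of lower genes was 1 without aged replicate 2 and 1 without aged replicate 3. The negative control probe sets had a 95th percentile of 7.61, and 13 of the 43 genes had both means, and 4 a single mean, below it; no fold is given for those. Among the 26 genes with both means above it, 13 were higher and 1 was lower, beside 21.4% and 36.2% of all such genes. The antigenomic background probe sets, which match no mouse sequence, differed between the ages by 0.01 to 0.29, and 11 of the 24 rises were smaller than that largest shift. The 5222 negative controls ran the other way, with array medians of 4.62 to 4.67 in aged and 4.93 to 5.06 in young cells and a median difference of -0.26. The part of either background in the mitotic differences was not tested.

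Of 9 measured stromal markers 5 lay above the negative control range, and Thy1, Eng, Nt5e and Lepr lay within it. Of the 8 tested, 5 rose, among them Cxcl12 by 2.25, Vcam1 by 1.01 and Col1a1 by 0.79, and Nt5e fell by 0.54; the list's summed linear signal was 23079 to 23592 on aged and 14736 to 15355 on young arrays. Of the sort markers, Itgb1 (CD29) was bright at 11.76 ± 0.01 in aged and 11.86 ± 0.04 in young cells (SD, n = 3 each) and lower in aged cells (adjusted p = 0.025). Ptprc (CD45) read 3.62 and 3.65, and Itgam (CD11b) read 5.24 and 5.26, both within the negative control range; Ly6a (Sca-1) was not analysed. Markers of other cells are counted over those tested, and their signals summed over those measured. Of 4 tested macrophage and monocyte markers 1 rose and none fell. The signal of the 7 measured, all within the negative control range, was 460 to 470 on aged and 434 to 447 on young arrays. Neutrophil markers (1 of 3 tested higher; 5 measured, summed signal 251 to 254 on aged and 174 to 217 on young arrays) and lymphoid markers (1 of 3 tested higher; 4 measured, 248 to 254 and 222 to 249.8) all read within the negative control range. None of the 2 erythroid markers, both within the negative control range, passed (148 to 151 on aged and 142 to 153 on young arrays). Of 3 tested endothelial markers 1 was higher and 1 lower (5 measured, 234 to 243 on aged and 201 to 210 on young arrays). Those 5 all lay within the negative control range. Ctsk, which stromal cells also express, was higher among 2 tested osteoclast markers (3 measured). It averaged 10.04 in aged and 9.07 in young cells, whereas the other 2 measured, Acp5 and Calcr, lay within the negative control range. The summed signal of the 3, most of it from Ctsk, was 1245 to 1270 on aged and 705 to 766 on young arrays. The part of stromal and other cell types in the mitotic differences was not tested.

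Genes of the G2/M programme are known to carry 2 short promoter elements. These are the cell cycle genes homology region (CHR), bound by the DREAM and MuvB complexes, and CCAAT boxes bound by NF-Y. Promoter windows of 300 bases, from 250 before to 50 after the transcription start, were available from RefSeq (GRCm38.p6) for 37 of the 45 genes, in 40 windows. The letters TTTGAA (CHR), on either strand, stood in 29 of the 40 windows (72.5%), beside 17.9% of all 32851 windows. The letters CCAAT, on either strand, stood in 30 (75.0%), beside 37.4%, and both stood in 26 (65.0%), beside 6.95%. The 2 elements were found together in 14 of 21 windows of genes that rose (66.7%) and in 10 of 15 windows of genes that did not pass (66.7%). In 1 of the 40 windows a CHR overlapped a CCAAT box. A match is a description of the letters and not evidence of binding.

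A set of 5 stretches, each the 170 bases before the start, show this mix; they were picked after their values and matches were seen. Capitals mark TTTGAA and CCAAT on the printed strand, or their reverse complements TTCAAA and ATTGG, and all are written in the direction of transcription. Ccnb2 (chr9:70421555-70421724, minus strand) and Ube2c (chr2:164769759-164769928, plus strand) rose and hold both elements. The window of Ccnb2 holds another TTTGAA just after the start, outside the printed stretch. Nusap1 (chr2:119618128-119618297, plus strand) rose and holds neither. Cdk1 (chr10:69352913-69353082, minus strand) holds both and did not pass, and Bub1 (chr2:127831860-127832029, minus strand) holds CCAAT boxes alone and fell.
Ccnb2: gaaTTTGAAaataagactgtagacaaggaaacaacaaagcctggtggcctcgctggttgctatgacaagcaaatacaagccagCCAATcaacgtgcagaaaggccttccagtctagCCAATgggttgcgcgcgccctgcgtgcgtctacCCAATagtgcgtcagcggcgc
Ube2c: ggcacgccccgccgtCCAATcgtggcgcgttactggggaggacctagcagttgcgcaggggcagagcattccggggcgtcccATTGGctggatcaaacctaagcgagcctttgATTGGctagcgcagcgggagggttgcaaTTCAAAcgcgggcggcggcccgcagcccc
Nusap1: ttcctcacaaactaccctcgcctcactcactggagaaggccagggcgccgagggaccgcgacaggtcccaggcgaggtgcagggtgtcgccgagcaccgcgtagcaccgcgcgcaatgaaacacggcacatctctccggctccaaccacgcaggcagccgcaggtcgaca
Cdk1: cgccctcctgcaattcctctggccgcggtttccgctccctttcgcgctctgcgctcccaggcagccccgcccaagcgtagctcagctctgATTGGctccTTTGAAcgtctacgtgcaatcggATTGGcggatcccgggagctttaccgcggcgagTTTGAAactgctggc
Bub1: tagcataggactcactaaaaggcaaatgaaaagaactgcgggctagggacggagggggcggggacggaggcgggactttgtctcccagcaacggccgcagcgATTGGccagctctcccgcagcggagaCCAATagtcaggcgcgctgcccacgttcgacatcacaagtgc

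**Figure D2:**
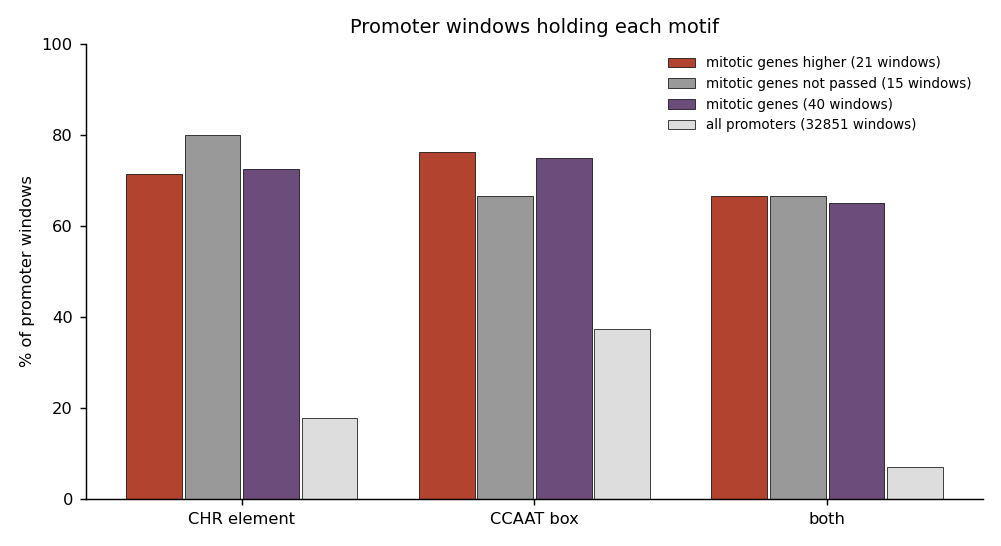
Share of promoter windows (percent, 300 bases each) that hold the CHR element, a CCAAT box or both, for mitotic genes that were higher at 18 months, those that did not pass, all windows of mitotic genes, and all windows in RefSeq. The CHR stands in 71.4%, 80.0%, 72.5% and 17.9% of them in that order.

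Ccnb2 and Ccna2, the cyclins measured among the mitotic genes, rose while the level of Cdk1 did not. Ccnb2, which encodes cyclin B2, read 8.86, 8.87 and 8.94 on the aged arrays, against 8.06, 8.01 and 7.77 on the young arrays. Every aged array lay above every young one, the difference was 0.94 (95% interval 0.78 to 1.11) or 1.92-fold, and the adjusted p was 1.11e-05. RefSeq lists a Ccnb2 pseudogene, so the probe set may read more than 1 gene. Ccna2, which encodes cyclin A2, read 9.08, 9.09 and 9.09 on aged arrays, against 8.63, 8.56 and 8.48 on young arrays. Its groups were separate and it rose 1.44-fold (difference 0.53, interval 0.43 to 0.63, adjusted p = 1.58e-05). Cdk1, the catalytic partner of both, read 8.10, 8.10 and 8.09 on aged arrays, against 8.23, 8.20 and 8.15 on young arrays. Its aged arrays all lay below the young ones, but the difference of -0.10 (interval -0.19 to -0.01) did not pass (adjusted p = 0.0644). It passed as lower without young replicate 3 (adjusted p = 0.0165), after quantile normalization (0.0112) and with the lower 70% of probe sets left out (0.0492). The intervals of Ccnb2 and Cdk1 do not overlap; differences between genes were not tested as such, here or below.

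Of the phosphatases that activate CDK1, Cdc25b read 8.02, 7.95 and 8.03 on aged arrays, against 7.89, 7.86 and 7.76 on young arrays. Its groups were separate and it rose by 0.16 (adjusted p = 0.0237). Cdc25c averaged 7.19 ± 0.06 and 7.19 ± 0.13 and its groups overlapped (difference 0.01, interval -0.15 to 0.17). Plk1, the Polo kinase of mitotic entry and spindle assembly, read 9.26, 9.20 and 9.27 on aged arrays, against 8.86, 8.81 and 8.67 on young arrays. The groups were separate, and it rose 1.38-fold (difference 0.47, interval 0.35 to 0.59, adjusted p = 0.000112). Aurka, the kinase of spindle poles, read 8.80, 8.83 and 8.79 on aged arrays and 8.77, 8.73 and 8.71 on young arrays. Aurkb, the kinase of the chromosomal passenger complex, read 7.24, 7.25 and 7.23 on aged arrays and 7.15, 7.15 and 7.12 on young arrays. Neither Aurora kinase passed, with differences of 0.07 (interval -0.01 to 0.14) and 0.10 (interval 0.00 to 0.19) and adjusted p of 0.172 and 0.0957, though the aged arrays of each lay above its young ones. Aurka passed after quantile normalization (adjusted p = 0.0429).

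**Figure D3:**
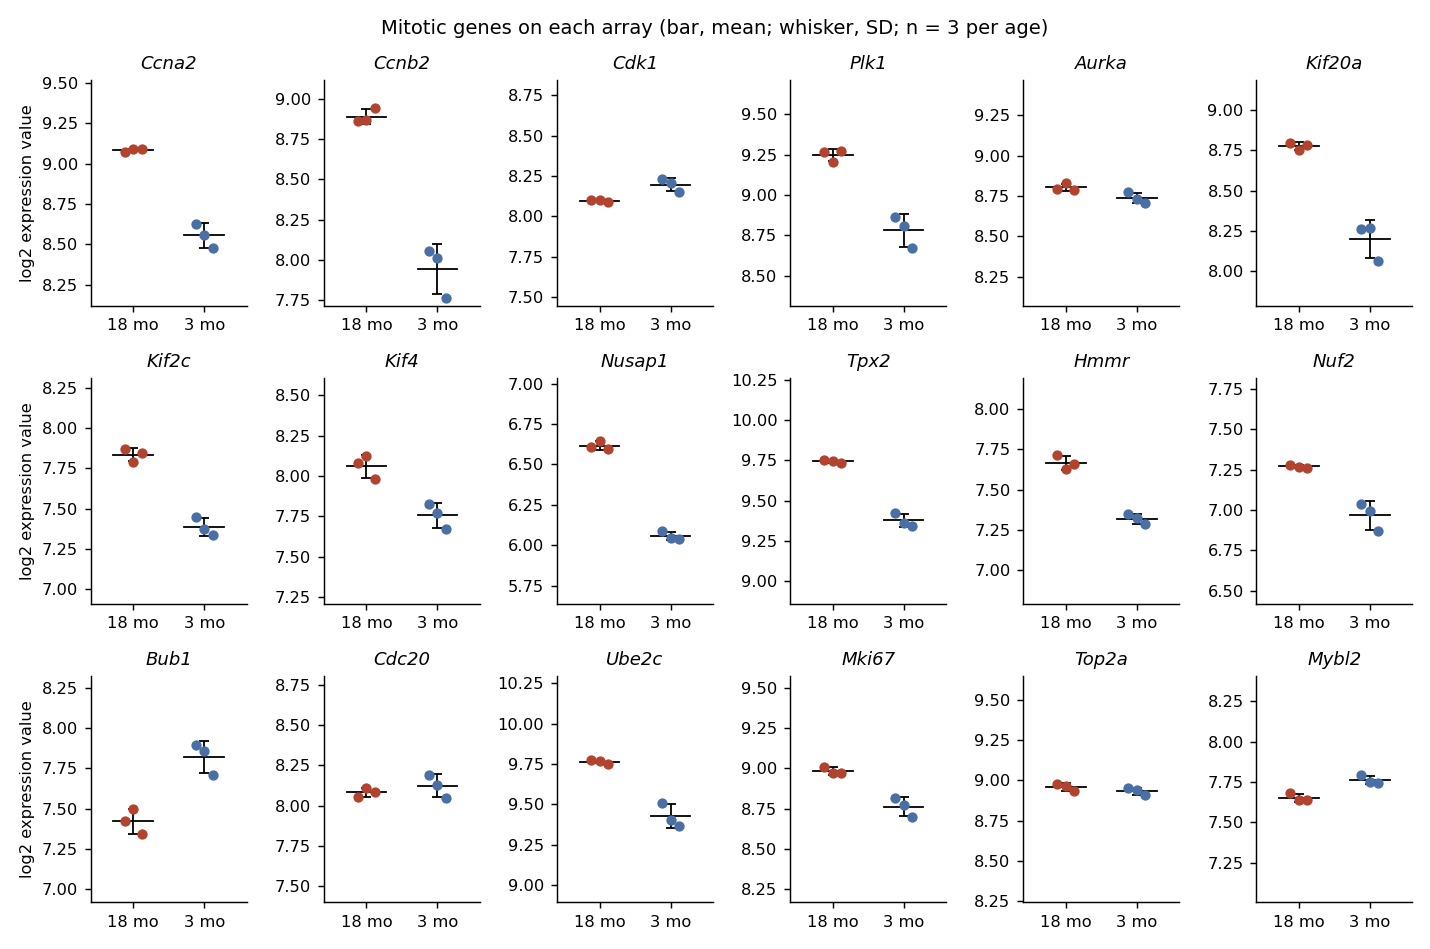
Deposited log2 expression values of 18 mitotic genes on the 3 arrays of 18 months (left in each panel) and the 3 arrays of 3 months (right); points are arrays, bars means and whiskers SDs, and all panels span the same log2 range. Ccnb2, Ccna2, Plk1 and Kif20a are separated by age, Top2a and Cdc20 overlap, and Bub1 is lower at 18 months.

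The transcription factor Mybl2 (B-MYB), which works with MuvB at G2/M promoters, read 7.68, 7.64 and 7.64 on aged arrays, against 7.79, 7.75 and 7.74 on young arrays. Its aged arrays lay below the young ones without passing (difference -0.11, interval -0.20 to -0.02, adjusted p = 0.0567). It passed as lower without young replicate 3 (adjusted p = 0.0345), after quantile normalization (0.00893), with the lower 70% of probe sets left out (0.0424) and with eBayes without trend (0.048). Its difference thus had the opposite sign to the median of the 43 genes.

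Markers of dividing chromosomes differed from each other. Mki67, whose product Ki-67 coats mitotic chromosomes, read 9.01, 8.97 and 8.97 on aged arrays, against 8.81, 8.77 and 8.70 on young arrays. It rose 1.16-fold, with separate groups (difference 0.22, interval 0.13 to 0.31, adjusted p = 0.00181). Top2a, the topoisomerase that untangles sister chromatids, read 8.98, 8.97 and 8.93 on aged arrays and 8.95, 8.94 and 8.91 on young arrays. Its groups overlapped, and the difference of 0.03 (interval -0.05 to 0.10) did not pass (adjusted p = 0.57).

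Of 7 kinetochore and centromere genes 6 were higher and none lower, with a median difference of 0.27. Counts by role, here and below, stand beside 18.5% of all genes higher and 22.1% lower. Of the 4 subunits of the NDC80 complex, which grips microtubule ends, Nuf2 read 7.28, 7.27 and 7.26 on aged arrays, against 7.04, 6.997 and 6.87 on young arrays. Spc24 read 7.85, 7.85 and 7.77 on aged arrays, against 7.44, 7.50 and 7.61 on young arrays. Spc25 read 6.45, 6.40 and 6.38 on aged arrays, against 6.07, 6.12 and 6.11 on young arrays. These 3 subunits rose by 0.30, 0.31 and 0.31, with separate groups each (adjusted p = 0.00204, 0.0017 and 0.00112). For Nuf2 and Spc25 both means lay within the negative control range, and for Spc24 the young mean alone. The fourth subunit, Ndc80, averaged 8.72 ± 0.02 in aged and 8.66 ± 0.02 in young cells (SD, n = 3 each), a difference of 0.06 (interval -0.01 to 0.14) that did not pass; after quantile normalization it did (adjusted p = 0.0439). Cenpf, a large protein of the outer kinetochore, rose by 0.27. Cenpe, the kinesin that carries chromosomes to the metaphase plate, rose by 0.14, and Cenpa, the histone H3 variant that marks centromeres, by 0.15. Both means of Cenpf and of Cenpa lay within the negative control range.

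Of 5 spindle assembly checkpoint genes 1 rose and 1 fell, near the 18.5% and 22.1% of all genes, the median being -0.08. Bub1, the kinase that places the checkpoint on kinetochores, read 7.43, 7.50 and 7.34 on aged arrays, against 7.90, 7.86 and 7.71 on young arrays. It fell by 0.40 (interval -0.54 to -0.26, adjusted p = 0.000882), with every aged array below every young one and its aged mean within the negative control range. Its relative Bub1b (BUBR1), part of the inhibitor of the anaphase-promoting complex, averaged 7.58 ± 0.06 in aged and 7.40 ± 0.10 in young cells (SD, n = 3 each) and rose by 0.18 (interval 0.05 to 0.31, adjusted p = 0.0356). The intervals of the relatives do not overlap, and both means of Bub1b lay within the negative control range. Mad2l1 (MAD2) and Bub3, also parts of that inhibitor, differed by -0.08 (interval -0.15 to -0.01) and 0.01 (interval -0.07 to 0.09). Ttk (MPS1), the kinase that starts the checkpoint, differed by -0.08 (interval -0.22 to 0.06), and none of the 3 passed. Without young replicate 3 Ttk passed as lower (adjusted p = 0.0355).

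In the chromosomal passenger complex, which corrects wrong attachments, all 4 subunits had every aged array above every young array, beside 24.4% of all genes. Of the 4, 1 passed, as higher, beside 18.5% of all genes. Birc5 (survivin) averaged 7.22 ± 0.04 in aged and 7.08 ± 0.03 in young cells (SD, n = 3 each; difference 0.13, adjusted p = 0.0437). Both means of Birc5 lay within the negative control range, as did those of Aurkb. Cdca8 (borealin) and Incenp, the scaffold, differed by 0.08 (interval -0.01 to 0.18) and 0.04 (interval -0.04 to 0.12).

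Of 4 genes of anaphase and mitotic exit 2 were higher and none lower. Ube2c, the ubiquitin-conjugating enzyme of the anaphase-promoting complex, read 9.77, 9.77 and 9.75 on aged arrays, against 9.51, 9.40 and 9.36 on young arrays. It rose 1.26-fold, with separate groups (difference 0.34, interval 0.25 to 0.43, adjusted p = 0.000186). Cdc20, the activator of that complex, read 8.06, 8.11 and 8.09 on aged arrays and 8.19, 8.13 and 8.05 on young arrays, so its groups overlapped (difference -0.04, interval -0.14 to 0.07, adjusted p = 0.563). Pttg1 (securin), the inhibitor of separase, averaged 7.04 ± 0.07 in aged and 6.78 ± 0.11 in young cells (SD, n = 3 each) and rose by 0.25 (adjusted p = 0.0149). Espl1 (separase), which cuts cohesin, differed by 0.08 (interval -0.02 to 0.19) and did not pass. Both means of Pttg1 and of Espl1 lay within the negative control range.

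Among 7 mitotic kinesins, the motors of spindle and chromosomes, 5 were higher and none lower. Kif20a, a motor of the central spindle, read 8.79, 8.75 and 8.78 on aged arrays, against 8.26, 8.27 and 8.06 on young arrays. It rose 1.49-fold, with separate groups (difference 0.58, interval 0.45 to 0.71, adjusted p = 5.74e-05). Kif2c, which takes microtubules apart at kinetochores, read 7.87, 7.79 and 7.84 on aged arrays, against 7.45, 7.38 and 7.34 on young arrays. It rose by 0.45 (interval 0.34 to 0.55, adjusted p = 7.37e-05), with separate groups and its young mean within the negative control range. Kif4, a motor of chromosome arms and midzone, read 8.08, 8.12 and 7.98 on aged arrays, against 7.83, 7.77 and 7.67 on young arrays. It was 1.24-fold higher (adjusted p = 0.00209), and RefSeq lists a Kif4 pseudogene that its probe set may also read. Kif11, the motor that pushes spindle poles apart, averaged 8.84 ± 0.04 in aged and 8.70 ± 0.04 in young cells (SD, n = 3 each) and rose by 0.13, an interval (0.05 to 0.22) that does not reach that of Kif20a. Kif23 and Kif18a differed by 0.13 and 0.16 and did not pass (adjusted p = 0.118 and 0.0926); without young replicate 1 both did (0.0415 and 0.0141).

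Spindle assembly and midzone genes rose in 5 of 6 cases, Aurka being the exception, with a median difference of 0.27. Nusap1, which binds spindle microtubules around chromosomes, read 6.61, 6.65 and 6.60 on aged arrays, against 6.08, 6.05 and 6.04 on young arrays. It rose by 0.56 (interval 0.45 to 0.67, adjusted p = 2.62e-05), all values lying within the negative control range. Tpx2, the activator of Aurora A, read 9.75, 9.74 and 9.74 on aged arrays, against 9.42, 9.36 and 9.35 on young arrays. It rose 1.29-fold (difference 0.37, interval 0.29 to 0.44, adjusted p = 2.58e-05), above and apart from the interval of its partner Aurka. Hmmr, a microtubule-binding protein of the poles, read 7.71, 7.63 and 7.66 on aged arrays, against 7.35, 7.32 and 7.29 on young arrays. It rose by 0.34 (adjusted p = 0.000263) with separate groups and its young mean within the negative control range. Prc1, which bundles midzone microtubules, averaged 8.64 ± 0.03 in aged and 8.45 ± 0.06 in young cells (SD, n = 3 each) and rose 1.14-fold.

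Of 6 cytokinesis genes 3 were higher and 1 lower. The riser not yet named, Racgap1, forms centralspindlin with Kif23 and averaged 8.53 ± 0.01 in aged and 8.40 ± 0.06 in young cells (SD, n = 3 each; difference 0.13, adjusted p = 0.0273). Ect2, the exchange factor that switches on RhoA at the cleavage furrow, averaged 8.99 ± 0.02 in aged and 9.14 ± 0.06 in young cells (SD, n = 3 each) and fell by 0.15 (interval -0.24 to -0.06, adjusted p = 0.0147). Anln (anillin), the furrow scaffold, differed by 0.02 (interval -0.08 to 0.11) and its groups overlapped.

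The smaller calls depended on which arrays were included. Birc5 lost its call without any 1 of the 6 arrays (adjusted p from 0.052 to 0.168), Cenpa without any of them except young replicate 1 (0.0697 to 0.171), and Racgap1 without any aged array or young replicate 2 (0.0636 to 0.104). Cenpe lost it without aged replicate 1 or 2 or young replicate 2 or 3 (0.0542 to 0.139), and Bub1b without any aged array or young replicate 3 (0.0544 to 0.141). Cdc25b lost it without aged replicate 1 or 3 or young replicate 2 (0.055 to 0.0944), and Kif11 without aged replicate 1 or 2 (0.091 and 0.105). Pttg1 and Ect2 lost it without aged replicate 2 (0.0542 and 0.057) or aged replicate 3 (0.0679 and 0.0613), and Ect2 also after median centring (0.0794). Some also depended on the processing. Birc5 and Cenpa did not pass after quantile normalization (0.0635 and 0.0783), without the filter on dim genes (0.0549 and 0.0577) or with the replicate block (0.0812 and 0.0573), where Racgap1 did not pass either (0.0512). Cenpe did not pass after median centring (0.0548), without the filter (0.0551) or with eBayes without trend (0.0511). The other 17 calls, 16 higher and Bub1 lower, held under each alternative in which the gene was tested, except the test against 0.3; the 70% filter left out Nusap1 and Spc25.

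Other lists of mitotic and cell cycle genes gave counts in both directions. Of 20 other regulators of G2 and mitosis 11 were higher and 2 lower (median 0.15), beside the same 18.5% and 22.1% of all genes. Without aged replicate 2 the count of higher genes was 7, and without young replicate 3 that of lower genes was 5. Both means lay within the negative control range in 10 of these 20 genes, and a single mean in 3. Of all genes with both means above that range 21.4% were higher and 36.2% lower. Cdkn3, a phosphatase of CDKs, averaged 8.04 ± 0.09 in aged and 7.18 ± 0.12 in young cells (SD, n = 3 each), and Wee1, the kinase that restrains CDK1, averaged 9.19 ± 0.02 and 8.67 ± 0.06; they rose by 0.86 and 0.52. Cks1b, a CDK-binding subunit, and Cdc25a fell by 0.34 each. The young mean of Cdkn3 lay within the negative control range, whereas both means of Wee1, Cks1b and Cdc25a lay above it. Of 20 other kinesin, spindle and centrosome genes 3 were higher (5 without young replicate 1) and 4 lower (median 0.02). The 15% higher and 20% lower lay near the shares of all genes. Ckap2l and Tacc3 were higher by 0.51 and 0.31, and Stil and Arhgap11a lower (-0.53 and -0.31). Both means of Stil and the young mean of Ckap2l lay within the negative control range. Among these 20 genes both means lay within it in 9, and a single mean in 2.

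Lists for the structure and attachment of chromosomes gave the following counts of calls, each beside 18.5% of all genes higher and 22.1% lower. Of 8 condensin genes none rose and 4 fell (median -0.17), among them Ncapd3 (-0.41) and Smc2 (-0.24). Of 13 cohesin genes 1 rose (0 to 2 with 1 array left out) and 7 fell (median -0.09), among them the loader Nipbl, at 9.31 ± 0.01 in aged and 9.80 ± 0.02 in young cells (SD, n = 3 each), and Pds5a (-0.46). Of 14 other outer kinetochore genes 1 rose (0 without the dim filter) and 6 fell (median -0.07), Mis12 and Zwint by 0.52 and 0.40. Of 14 tested inner centromere genes 3 rose and 3 fell (median -0.01; 5 fell without young replicate 3, and 1 without aged replicate 1 or young replicate 2). The 21.4% each way among inner centromere genes lay near the shares of all genes. Cenpm was higher by 0.78 and Cenpq lower (-0.67). The young mean of Cenpm and the aged mean of Cenpq lay within the negative control range. Both means lay within it in 9 of the 14 inner centromere genes and 8 of the 14 other outer kinetochore genes. The same held for 3 cohesin genes and 1 condensin gene. Genes of the anaphase-promoting complex moved both ways, with 6 of 17 higher and 5 lower (median 0.05), Cdc16 rising by 0.35 and Anapc1 falling by 0.42.

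Upstream of mitosis, none of 17 E2F, pocket protein and MuvB genes passed as higher and 9 fell (median -0.13). Outside the alternatives, counts of calls in this paragraph stand beside 18.5% of all genes higher and 22.1% lower. After quantile normalization 3 of the 17 were higher, without young replicate 1 it was 4, and without aged replicate 2 it was 1. Among those that fell was Rb1, which read 8.06 ± 0.03 in aged and 8.60 ± 0.02 in young cells (SD, n = 3 each). Of 7 G1/S cyclins and CDKs 1 rose, Ccnd3 by 0.59, and 4 fell, including Cdk2 (-0.39); 3 were higher after quantile normalization, and 2 with the 70% filter or without young replicate 1. Of 25 DNA replication genes 1 rose (0 to 2 over the alternatives) and 11 fell (median -0.15), with Mcm4 and Pcna lower (-0.30 and -0.24). Of 7 CDK inhibitors 6 rose and none fell (median 0.35), Cdkn2b averaging 10.73 ± 0.12 in aged and 9.19 ± 0.11 in young cells (SD, n = 3 each) and Cdkn2a 10.20 ± 0.00 and 9.44 ± 0.05. In the same RNA, 24 of 43 mitotic genes were higher, 11 of 25 replication genes lower and 6 of 7 CDK inhibitors higher. Both means lay within the negative control range in 7 of the 25 replication genes, and a single mean in 3. Both did so too in 3 of the CDK inhibitors and 7 of the 17 E2F, pocket protein and MuvB genes. Of all genes with both means above that range 36.2% were lower, a larger share than the 22.1%. No test compared the lists with each other.

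**Figure D4:**
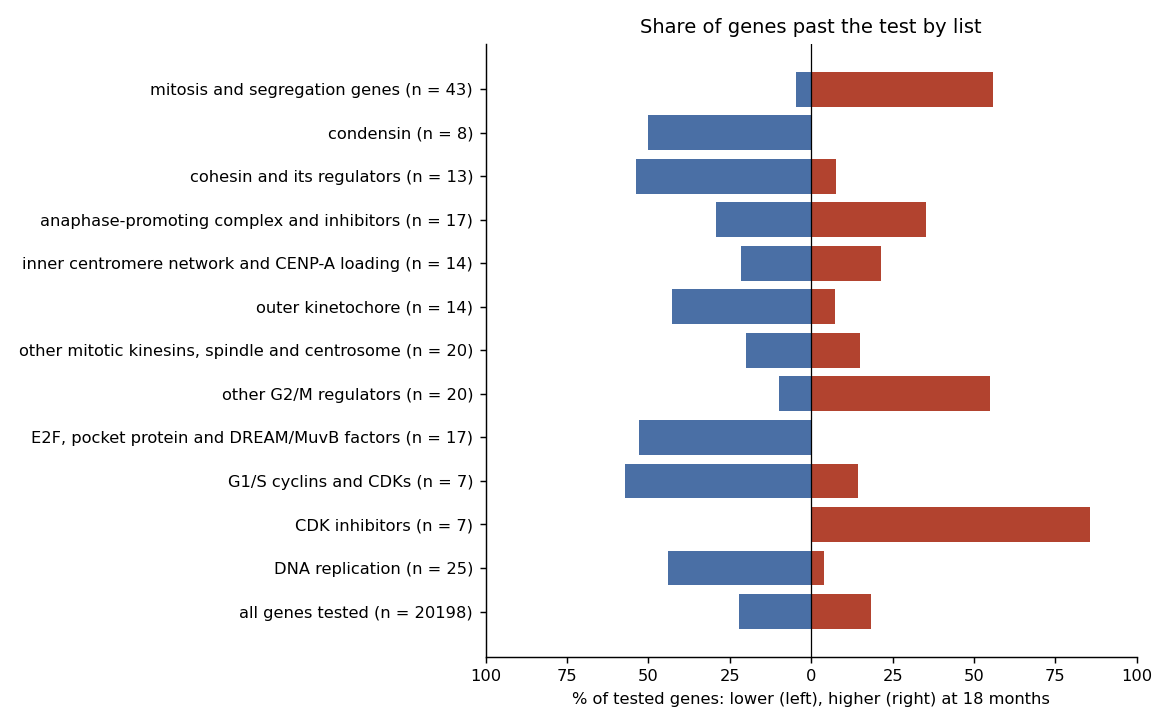
Percent of tested genes called higher (right) or lower (left) at 18 months in the mitosis and segregation genes, in 11 other lists, and in all genes tested, with the number tested beside each name (limma, adjusted p under 0.05). The mitotic genes stand at 55.8% higher and 4.65% lower, and all genes at 18.5% and 22.1%.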

How the data were processed

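Total RNA of 6 samples was measured on Affymetrix arrays, and the authors' deposited log2 expression values, 1 per probe set and array, were used with no further scaling. MAS5 is the tool named in the submitters' processing notes; the sources used here give neither its version nor its settings. The number of arrays limits the precision, and the smallest two-sided p of an exact permutation test of 3 against 3 arrays is 0.1.

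Of 72688 probe sets, 31269 had 1 gene and 1481 several after platform symbols were updated through RefSeq (GRCm38.p6), of which 31267 matched; the rest stayed unnamed. Groups and replicate numbers came from sample titles. Genes with a mean under the median transcript cluster (5.40) were left out. limma 3.58.1 in R 4.3.3 was fitted (lmFit, eBayes with trend, Benjamini-Hochberg, threshold 0.05). On simulated arrays of 20198 genes the test recovered 12 of 50 genes changed by 0.25, 37 of 50 by 0.5, 47 of 50 by 1 and 50 of 50 by 2, with 6 false calls. Only these genes were changed there, and each gene had the same SD in both ages. On the real arrays 40.6% of genes were called, and the median SD was 0.04 in aged and 0.07 in young cells. The recovery of the real test may therefore differ. Members and lists were chosen with earlier results of these data known. Named in full are called members with separate groups and a difference of at least 0.3, plus key regulators; from each other list, at most the 2 genes with the smallest p in each direction. Alternatives covered scaling, filter, probe sets, variance model, a minimum difference, the replicate block and left-out arrays. Figures used matplotlib 3.10.9.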

Additional observations from a re-analysis of the deposited data

How the results depend on the processing

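The count of mitotic genes higher at 18 months was 24 and lay between 21 and 24 under every alternative of scaling, filter, probe set choice and variance model, and the median difference stayed between 0.12 and 0.17. Leaving out 1 array gave 17 to 25 higher and 1 to 5 lower mitotic genes, and over all genes 3007 to 4333 higher and 3711 to 4962 lower. The count of lower mitotic genes, 2, was 4 after quantile normalization and 4 with the lower 70% of probe sets left out. It was 3 with eBayes without trend and 1 after median centring. The test against 0.3 gave 4 higher and 0 lower mitotic genes, and 1170 higher and 816 lower genes overall; the 0 stands beside 2 lower by the test against 0. Deviations of same-numbered aged and young arrays from their group means correlated across genes at -0.05, 0.07 and 0.02. Such correlations cannot settle whether the numbers pair samples, and the titles do not say. The replicate block gave 21 higher and 2 lower mitotic genes. No called result changed direction under these alternatives. Of 685 single-gene values under alternatives 608 kept their side of the threshold, and of 352 counts in the other lists 305 stayed within 1.5 times. The cause of these changes was not tested.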
